A study of Mus musculus with 28 samples.

Results

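Neudesin (*Nenf*), adropin (*Enho*) and 8 genes of the regulated secretory pathway were followed in the amygdala of alcohol-drinking mice. The members were listed by symbol, because the study named *Nenf*, *Enho*, *Pcsk1n* and *Chga* for these mice and the other 6 belong to the same pathway, and all 10 were among the 49477 genes present in the count tables of both batches and among the 16266 genes tested. RNA was sequenced from micropunches holding the central and basolateral amygdala of 28 adult female C57BL6/J mice, a wild-type inbred strain, each mouse giving 1 library. The 10 Water mice had no access to alcohol, the 9 Acute mice had access to 20% alcohol a single time, and the 9 Chronic mice had it every other day for a month, with a choice between an alcohol and a water tube. Mice came in batches, with 4 Water, 4 Acute and 3 Chronic animals in the first and 6, 5 and 6 in the second. All groups shared strain, sex, single housing and day of tissue collection, and drinking mice kept the alcohol tube until they were anesthetized, so access to alcohol and its recent intake cannot be told apart.

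Neurons and endocrine cells store peptides in dense-core vesicles, where prohormones are cut at pairs of basic residues by the convertases encoded by *Pcsk1* and *Pcsk2*, and carboxypeptidase E (*Cpe*) then trims the exposed basic residues. *Pcsk1n* encodes proSAAS, an inhibitor of the *Pcsk1* product, and *Scg5* encodes the chaperone that the *Pcsk2* product needs to mature. Chromogranin A (*Chga*), chromogranin B (*Chgb*) and secretogranin II (*Scg2*) are granins, acidic proteins that help to pack the vesicle and are themselves cut into peptides. *Nenf* encodes a secreted heme-binding protein with neurotrophic activity, and *Enho* encodes the precursor of a peptide linked to energy balance. In the amygdala, peptides released from such vesicles, among them corticotropin-releasing factor and neurotensin, are known modulators of fear and of alcohol drinking.

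A promoter entry of 300 bases, from 250 before to 50 after the transcription start, was found in the RefSeq table for 7 of the 10 genes (assembly GRCm38.p6). The cAMP response element TGACGTCA, a known feature of granin and convertase promoters, was searched on both strands, together with its core TGACG, which is also contained in the full element. The full element stood in 3 of the 7 promoters (*Pcsk1*, *Chgb* and *Scg2*) and in 588 (1.79%) of 32851 promoters in the table. The core stood in 6 of the 7, all except *Pcsk1n*, and in 20.8% of all promoters. The promoters with the full element are shown first, then those of *Chga*, which has the core only, and of *Pcsk1n*, which has neither; each runs 5′ to 3′ along the gene's strand and the capitals mark the element or its core.
Pcsk1 (chr13:75089607-75089906, plus strand): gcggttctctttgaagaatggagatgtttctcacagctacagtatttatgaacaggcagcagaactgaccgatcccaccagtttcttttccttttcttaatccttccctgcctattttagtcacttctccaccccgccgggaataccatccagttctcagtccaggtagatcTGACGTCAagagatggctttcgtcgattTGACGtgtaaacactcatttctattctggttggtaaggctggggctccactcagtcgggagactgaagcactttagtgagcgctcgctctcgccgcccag
Chgb (chr2:132781392-132781691, plus strand): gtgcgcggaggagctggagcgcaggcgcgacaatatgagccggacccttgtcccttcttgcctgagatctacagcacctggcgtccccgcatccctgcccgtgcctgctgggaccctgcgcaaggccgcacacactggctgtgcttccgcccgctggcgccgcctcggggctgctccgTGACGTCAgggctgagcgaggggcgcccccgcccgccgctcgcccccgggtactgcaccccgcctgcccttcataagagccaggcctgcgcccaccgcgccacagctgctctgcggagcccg
Scg2 (chr1:79439977-79440276, minus strand): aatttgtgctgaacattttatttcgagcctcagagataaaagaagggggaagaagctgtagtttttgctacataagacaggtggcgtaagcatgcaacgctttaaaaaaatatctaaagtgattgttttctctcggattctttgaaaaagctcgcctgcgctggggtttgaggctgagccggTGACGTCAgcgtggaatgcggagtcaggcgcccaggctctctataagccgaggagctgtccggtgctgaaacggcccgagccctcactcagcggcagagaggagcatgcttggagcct
Chga (chr12:102554691-102554990, plus strand): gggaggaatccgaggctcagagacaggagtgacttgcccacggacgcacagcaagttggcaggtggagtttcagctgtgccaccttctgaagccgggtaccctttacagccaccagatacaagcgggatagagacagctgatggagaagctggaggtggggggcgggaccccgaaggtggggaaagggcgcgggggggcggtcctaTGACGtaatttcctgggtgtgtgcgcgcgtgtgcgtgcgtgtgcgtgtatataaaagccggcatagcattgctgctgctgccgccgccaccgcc
Pcsk1n (chrX:7919572-7919871, plus strand): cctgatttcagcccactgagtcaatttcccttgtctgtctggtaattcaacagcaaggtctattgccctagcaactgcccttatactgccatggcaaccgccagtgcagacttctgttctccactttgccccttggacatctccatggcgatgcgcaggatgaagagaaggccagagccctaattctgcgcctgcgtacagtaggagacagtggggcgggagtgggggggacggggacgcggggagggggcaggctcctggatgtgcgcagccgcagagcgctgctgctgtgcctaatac
The full element began 78 bases before the start of *Pcsk1* (position -78), at -72 in *Chgb* and at -68 in *Scg2*. The core of *Chga* began at -44. These are matches of letters in a window and no binding was measured. The Acute log2 fold changes of the genes with the full element, given with their errors below, were -0.02 (*Pcsk1*), 0.0040 (*Chgb*) and 0.29 (*Scg2*).

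In Water mice the 10 genes spanned a wide range of levels. Levels between genes were compared as counts scaled to library size (CPM) per kilobase of transcript, after the batch difference of each gene had been removed. *Cpe* stood highest at 995 ± 41.6 CPM per kilobase (SD, n = 10), above 99.9% of the genes tested on this scale. *Pcsk1n* followed at 250 ± 12.9, with no overlap between its mice and those of *Cpe*. *Scg2* (134 ± 26.1), *Chgb* (113 ± 10.7) and *Scg5* (109 ± 4.85) came next, and neighbours among these 3 overlapped in range. *Pcsk2* (83.9 ± 7.06) and *Chga* (73.2 ± 4.86) also overlapped. *Nenf* stood lower at 31.2 ± 3.60, and *Enho* (18.1 ± 1.48) and *Pcsk1* (15.1 ± 1.35) were the lowest and overlapped each other. The inhibitor transcript therefore lay far above that of its target convertase per kilobase, and the log2 ratio of *Pcsk1n* to *Pcsk1* CPM, not scaled by length, was 2.85 ± 0.15 in Water mice.

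**Figure D1:**
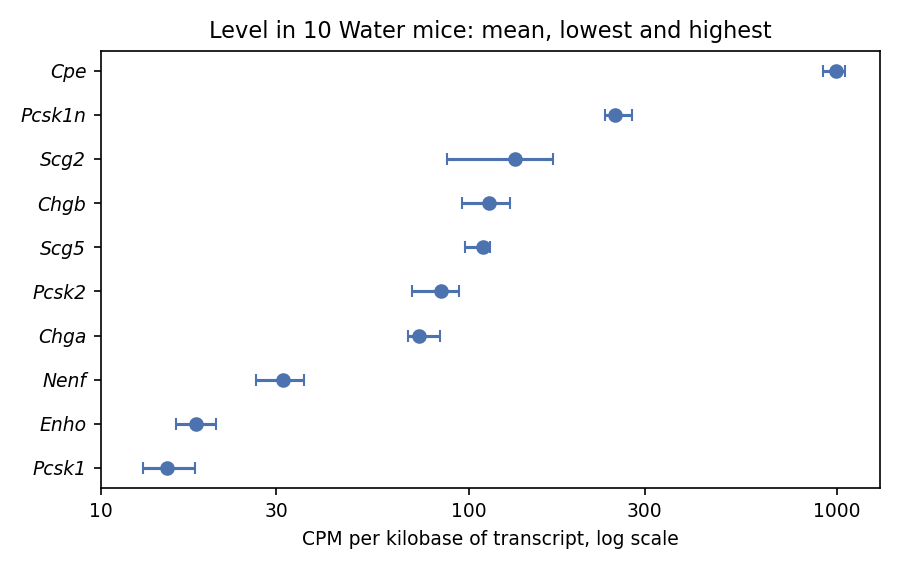
Level of each gene in the 10 Water mice as CPM per kilobase of transcript (log axis), with the point at the mean and the bar from the lowest to the highest mouse. *Cpe* at 995 and *Pcsk1n* at 250 stand clear of the rest, and *Enho* and *Pcsk1* overlap at the low end.

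Total counts ran from 20004380 to 22569562 per mouse, and no pair of libraries of the same group and batch agreed within counting noise. Counting error covers only part of the spread between mice. The labelled tissue was checked against marker lists: the 7 central amygdala markers summed to 532 to 881 CPM over all mice, the 8 hypothalamic markers to between 3.55 and 11.6 CPM, and the 8 choroid plexus markers to anything from 12.6 to 4360 CPM. The mice of every group covered nearly the whole choroid plexus range.

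The comparisons with Water ask how a single and a repeated exposure change these transcripts. They share the 10 Water mice, so agreement between them is not independent. The study had picked *Nenf*, *Enho* and *Pcsk1n* from Chronic against Water and *Pcsk1n* and *Chga* from Acute against Water in these mice, so the values of these 4 genes against Water are given as a description, without a test.

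*Nenf* was measured at 23.2 ± 2.67 batch-adjusted CPM in Water (SD, n = 10), 26.6 ± 2.88 in Acute (n = 9) and 27.4 ± 1.36 in Chronic mice (n = 9). Its lowest, median and highest mice were at 19.6, 23.5 and 26.5 CPM in Water, at 21.3, 26.9 and 31.4 in Acute, and at 26.3, 26.8 and 29.9 in Chronic. The Chronic mice sat in a narrow band at or above the top of the Water range: 8 of 9 lay above the highest Water mouse, and 9 of 10 Water mice lay below the lowest Chronic mouse. The coefficient of variation was 4.94% in Chronic against 11.5% in Water and 10.8% in Acute mice. The fold change against Water was 1.18 in Chronic (log2 0.24, SE 0.063, 9 of 9 mice above the Water mean) and 1.15 in Acute mice (log2 0.20, SE 0.063, 8 of 9 mice). The difference stood in each batch: before batch adjustment the first batch went from 20.6 ± 2.39 CPM in Water (n = 4) to 24.2 ± 1.04 in Acute (n = 4) and 24.1 ± 0.42 in Chronic (n = 3), and the second from 25.8 ± 3.25 (n = 6) to 29.1 ± 4.34 (n = 5) and 30.6 ± 1.79 (n = 6).

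*Enho* had 22.9 ± 1.88 CPM in Water, 25.2 ± 2.01 in Acute mice and 26.3 ± 1.49 in Chronic mice. Water mice ran from 20.3 to 26.01 CPM with a median of 23.4, Acute mice from 21.2 to 27.9 (median 25.8) and Chronic mice from 24.2 to 28.1 (median 26.96). All groups overlapped, with 5 of 9 Chronic and 2 of 9 Acute mice above the highest Water mouse. The log2 fold change was 0.20 in Chronic (SE 0.050, 9 of 9 mice above the Water mean) and 0.14 in Acute mice (SE 0.050, 8 of 9). Within batches the Chronic difference was 0.20 in both, and the Acute difference was 0.17 (first) and 0.12 (second). *Nenf* rested on 396 to 686 counts per mouse and *Enho* on 404 to 610, the smallest counts of the 10 genes.

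*Pcsk1n*, the convertase inhibitor, had 548 ± 28.3 CPM in Water, 605 ± 36.4 in Acute mice and 619 ± 36.1 in Chronic mice. Its lowest, median and highest mice stood at 513, 546 and 608 CPM in Water, 548, 605 and 652 in Acute, and 563, 624 and 671 in Chronic. Every drinking mouse was above the Water mean, and 6 of 9 Chronic and 4 of 9 Acute mice were above the highest Water mouse. The log2 fold change was 0.18 (SE 0.038) in Chronic and 0.14 (SE 0.038) in Acute mice. In the first batch the differences were 0.21 and 0.21 (Chronic and Acute), and in the second 0.15 and 0.09. The level itself differed strongly between batches, with 411 ± 14.5 CPM in first-batch Water mice and 724 ± 41.2 in second-batch Water mice.

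*Chga* showed its highest values in Acute mice, with 138 ± 9.16 CPM in Water, 154 ± 10.8 in Acute mice and 145 ± 8.20 in Chronic mice. Water mice ran from 129 to 157 CPM (median 133), Acute mice from 138 to 168 (median 150) and Chronic mice from 135 to 157 (median 143). All 9 Acute mice were above the Water mean and 4 were above the highest Water mouse, whereas 7 of 9 Chronic mice were above the mean and none was above the highest. The log2 fold change was 0.16 (SE 0.042) in Acute and 0.08 (SE 0.042) in Chronic mice. The Acute difference was 0.19 in first-batch and 0.14 in second-batch mice.

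**Figure D2:**
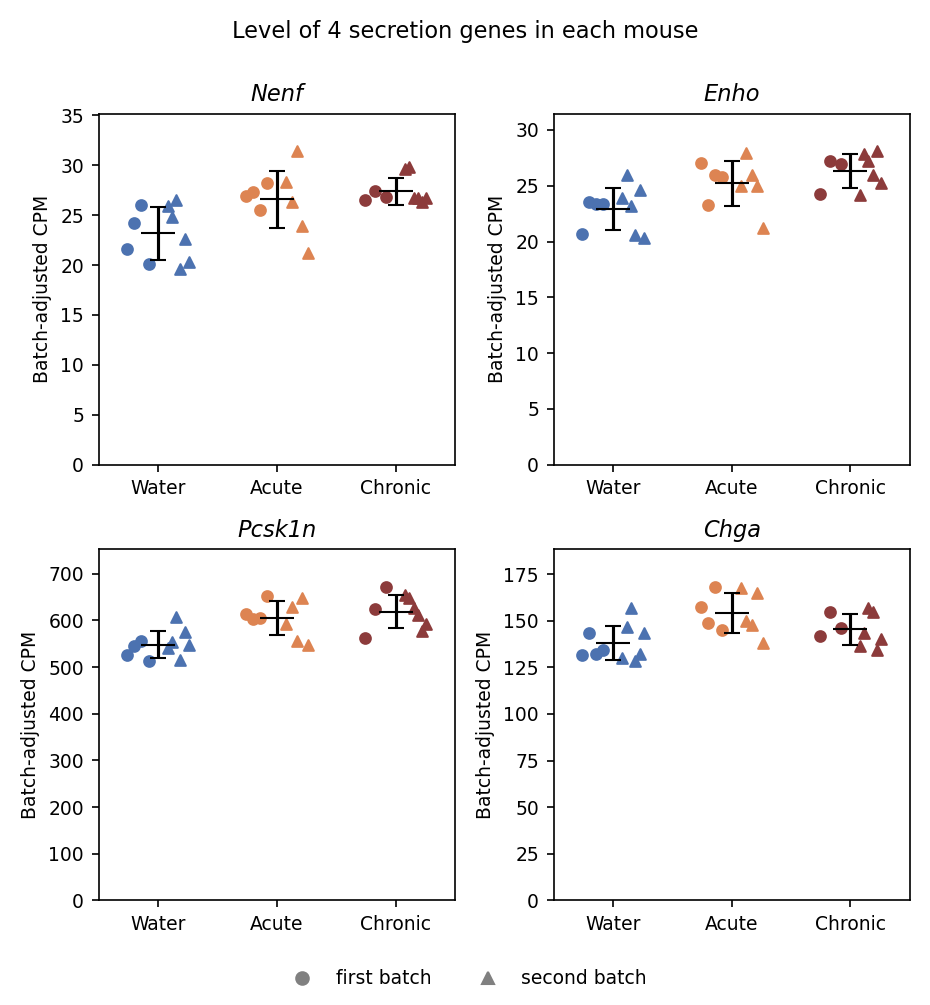
Batch-adjusted CPM of *Nenf*, *Enho*, *Pcsk1n* and *Chga* in each of 10 Water, 9 Acute and 9 Chronic mice (circles, first batch, and triangles, second batch), with black bars for the mean ± SD and axes that start at 0. The Chronic mice of *Nenf* lie between 26.3 and 29.9 CPM, close to or above the highest Water mouse at 26.5, and *Chga* has its highest mice in the Acute group.

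Of the 6 genes the study did not name, none passed edgeR's quasi-likelihood test in either comparison with Water (adjusted over all genes). *Scg2* came nearest. This granin, the precursor of secretoneurin, had 336 ± 65.8 CPM in Water, 410 ± 78.4 in Acute mice and 364 ± 66.7 in Chronic mice. Its Water mice ran from 219 to 427 CPM (median 327), its Acute mice from 291 to 530 (median 375) and its Chronic mice from 285 to 495 (median 339). The groups overlapped widely, although 8 of 9 Acute mice lay above the Water mean. The log2 fold change of Acute mice was 0.29 (SE 0.119, edgeR p = 0.0223, adjusted p = 0.477), and the exact permutation test within batches gave p = 0.0481 (0.65 after adjustment over the 22 such tests). It was 0.48 in first-batch and 0.16 in second-batch mice, and the first-batch Water mice had a wide spread (297 ± 85.2 CPM, n = 4). Its Chronic difference of 0.12 (SE 0.119, edgeR adjusted p = 0.769) was 0.33 in first-batch mice and -0.0021 in second-batch mice.

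The remaining processing genes stayed near the Water level. *Scg5*, the convertase chaperone, had 132 ± 5.86 CPM in Water, 137 ± 5.42 in Acute mice and 133 ± 8.32 in Chronic mice, with a log2 fold change of 0.06 in Acute (95% interval -0.01 to 0.13) and 0.01 in Chronic (-0.06 to 0.08). *Cpe* had 2106 ± 88.1, 2152 ± 83.5 and 2130 ± 122 CPM, and its log2 fold changes were 0.03 (-0.04 to 0.10) and 0.02 (-0.05 to 0.08). The estimates of both convertases were slightly below 0: *Pcsk1* had -0.02 (-0.14 to 0.10) and -0.04 (-0.16 to 0.08), and *Pcsk2* had -0.01 (-0.15 to 0.13) and -0.06 (-0.19 to 0.08). *Chgb* had 0.00 (-0.12 to 0.13) in Acute and -0.02 (-0.15 to 0.10) in Chronic mice. The edgeR adjusted p of these 5 genes lay between 0.601 and 0.991. *Pcsk1* CPM was 76.3 ± 6.78, 75.3 ± 8.22 and 74.1 ± 5.71, that of *Pcsk2* 396 ± 33.3, 393 ± 53.4 and 381 ± 30.9, and that of *Chgb* 311 ± 29.2, 312 ± 35.6 and 306 ± 19.6 across Water, Acute and Chronic animals. The 3 first-batch Chronic mice gave the lower *Pcsk1* and *Pcsk2* values, with differences of -0.15 for each there and 0.02 and -0.0026 in the second batch. Chronic mouse 38 was the lowest of these 3 for both genes, at 63.3 and 307 CPM. Without that mouse the Chronic log2 fold change over both batches was -0.0108 for *Pcsk1* and -0.0148 for *Pcsk2*.

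**Figure D3:**
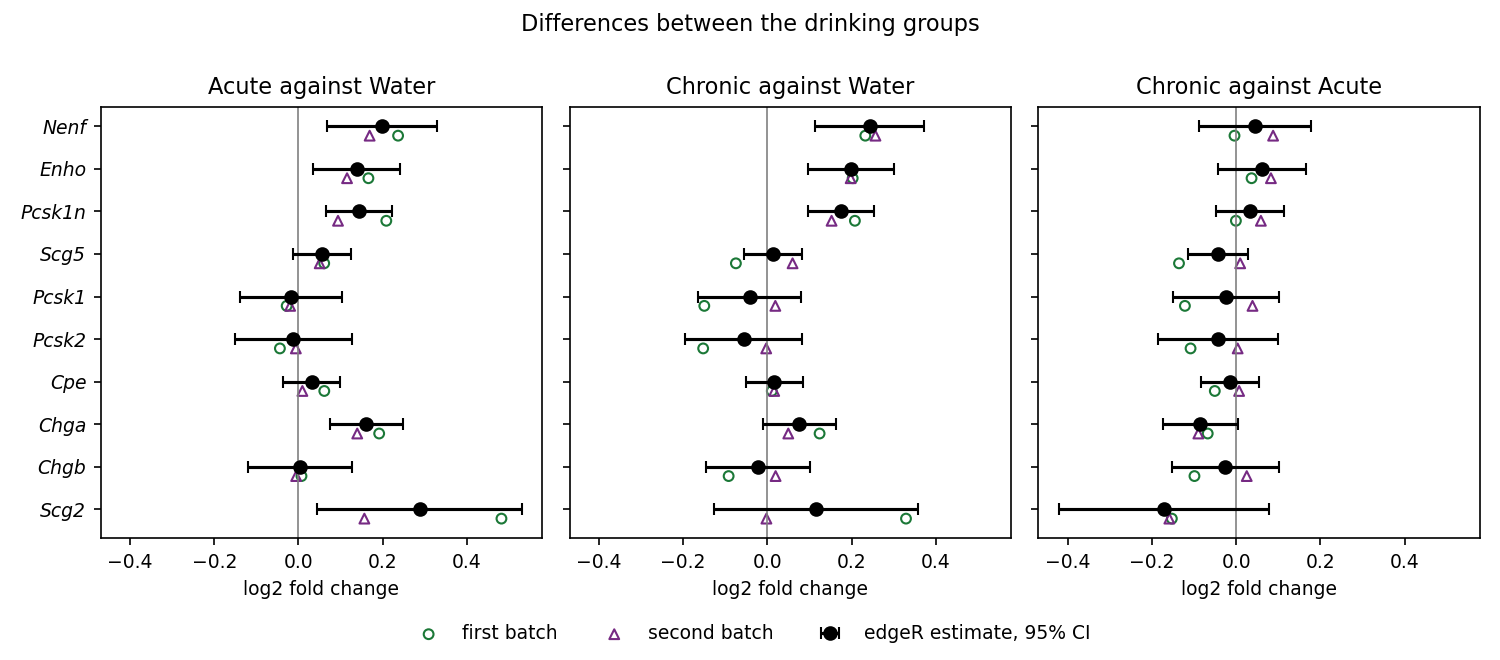
Log2 fold change of the 10 genes in each comparison from edgeR with batch as a covariate (black points with 95% confidence intervals, 28 mice), with the differences within the first batch (open circles) and the second (open triangles). Against Water, *Nenf*, *Enho* and *Pcsk1n* lie to the right in both batches, and the intervals of *Pcsk1*, *Pcsk2*, *Cpe* and *Chgb* cover 0 in every comparison.

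Counted over the list, 0 of the 10 genes were called at an adjusted p of 0.05 in Acute mice, where 0% of all genes were called, and 0 in Chronic mice, where 3 genes (0.0184%, and 0.0123% as higher) were called. At an unadjusted p of 0.05 the count was 5 in Acute mice, all higher (9.52% of all genes, and 5.07% higher), and 3 in Chronic mice, also all higher (10.5%, and 4.81% higher). Of these only *Scg2* in Acute mice is a gene that the study had not picked, which is 1 of 6, and in Chronic mice it was 0 of 6. The fold change was above 0 for 8 of 10 genes in Acute mice (50.6% of all genes) and for 7 of 10 in Chronic mice (51%). The median log2 fold change over the 10 genes was 0.10 and 0.05, beside 0.0011 and 0.0022 over all genes. In Acute mice 2 of the 10 genes had all 9 mice above the Water mean (2.3% of all genes) and 6 had 8 or 9 (9.55%), and in Chronic mice 3 had all 9 (2.16%) and the same 3 made up those with 8 or 9 (8.57%). These counts hold genes picked from the same mice and support nothing by themselves. With DESeq2 in place of edgeR, 3 of the 10 were called in Chronic mice (*Nenf*, *Enho* and *Pcsk1n*), where 38 of all genes (0.234%) were called, and 0 in Acute mice (0.0553%). ComBat-seq followed by DESeq2 called the same 3 in Chronic mice (88 of 16295 genes, 0.54%) and *Pcsk1n* and *Chga* in Acute mice (30 genes, 0.184%). Each of these is a gene that the study had picked from the same mice in the same comparison, so nothing is read from the counts. With edgeR, leaving out Water mouse 3 of the second batch turned the Chronic count into 1 (*Pcsk1n*, beside 0.0369% of all genes).

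The comparison of Chronic with Acute mice, which asks whether repeated and single access differ (number of accesses and amount drunk on the last day cannot be told apart), was not itself used to pick the genes, but *Chga* and *Pcsk1n* were picked for values of the same Acute mice, and *Nenf*, *Enho* and *Pcsk1n* for values of the same Chronic mice, so the direction of these 4 genes here is not independent of that choice. None of the 10 passed the test (edgeR adjusted p between 0.998 and 0.999), nor was any called among all genes tested (0%), and DESeq2, alone or after ComBat-seq, called 0 of the 10. At an unadjusted p of 0.05 the count was 0 of 10, against 4.44% of all genes, and 3 of 10 had a fold change above 0 (49.4% of all genes). *Chga* came nearest, with a log2 fold change of -0.08 from Acute to Chronic (95% interval -0.17 to 0.0038, p = 0.06 before adjustment in edgeR). *Scg2* had -0.17 (-0.42 to 0.08). The interval was -0.09 to 0.18 for *Nenf*, -0.04 to 0.17 for *Enho* and -0.05 to 0.11 for *Pcsk1n*, and the data are compatible with differences of any size within these bounds. The exact permutation p within batches was 0.0886 for *Chga* and at least 0.215 for the other 9.

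Whether the batches differed in their response was tested with a batch-by-group term. None of the 10 passed for Acute or for Chronic against Water, where 0% and 0.00615% of all genes did, and at an unadjusted p of 0.05 the count was 0 and 1 of 10 (4.13% and 6.15% of all genes). That 1 was *Scg5* in Chronic mice, at -0.07 for first-batch and 0.06 for second-batch mice (edgeR interaction p = 0.0492, adjusted p = 0.81). The terms of *Nenf*, *Enho* and *Pcsk1n* in Chronic mice were 0.02 (SE 0.136), -0.01 (SE 0.107) and -0.06 (SE 0.079), second minus first batch. The largest terms were those of *Scg2*, at -0.28 in Acute (SE 0.241) and -0.31 in Chronic mice (SE 0.247).

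Apart from *Scg2*, the genes with the larger differences from Water also had GC-rich transcripts. *Enho* (65.6% GC) and *Nenf* (62.1%) lay at the 99.5th and 98.0th percentile of all genes tested, *Chga* (58.4%) at the 90.5th and *Pcsk1n* (57.3%) at the 86.2nd. *Chgb* (53.9%) lay at the 70.5th, with fold changes near 0. *Pcsk1*, with 40.6% GC, lay at the 7.65th, and *Cpe*, *Scg5*, *Pcsk2* and *Scg2* between the 33.1st and 48.6th. Fold changes of all genes moved with GC content too: from the lowest to the highest of 5 GC bins of equal gene number the median log2 fold change went from -0.04 to 0.05 in Chronic mice, where 28.03% and 74.7% of genes were above 0, and from -0.02 to 0.02 in Acute mice (37.4% and 61.5%). When each mouse's trend on GC content and length was removed by offsets, the Chronic log2 fold change was 0.15 (SE 0.046) for *Nenf*, 0.09 (SE 0.047) for *Enho*, 0.12 (SE 0.032) for *Pcsk1n* and 0.02 (SE 0.041) for *Chga*. The Acute values were then 0.14, 0.06, 0.10 and 0.12 in the same order, and *Scg2*, whose GC content is ordinary, stayed at 0.28. The estimates of these genes kept their sign, and both values of *Enho* and the Chronic value of *Chga* were less than 50% of those without offsets.

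**Figure D4:**
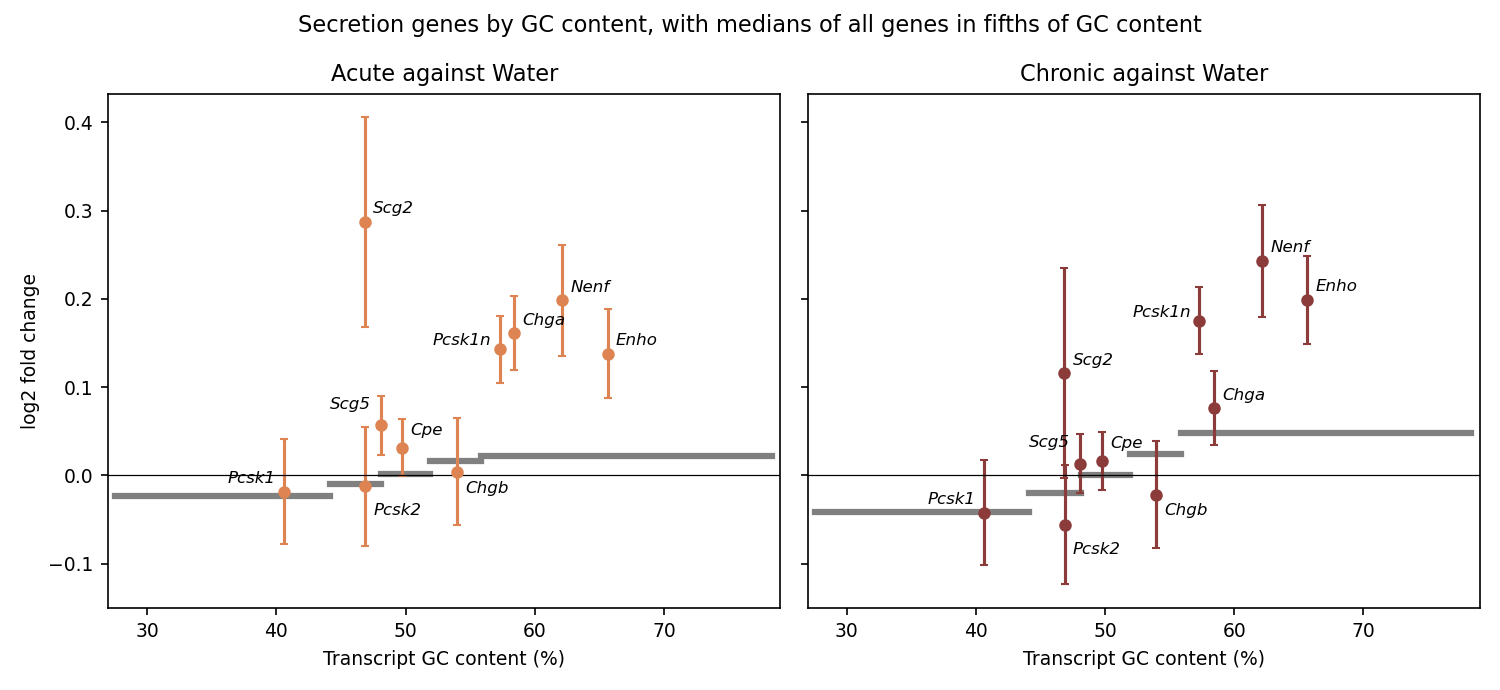
Log2 fold change against Water of the 10 genes (points, with bars of 1 SE) by GC content of the transcript, in Acute and Chronic mice, with grey bars for the median of all genes in each of 5 GC bins. *Nenf* and *Enho* lie above the median of the highest bin (0.05 in Chronic mice), and that median itself lies above the one of the lowest bin (-0.04).

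Some of these genes followed marker genes of brain regions and cell types from mouse to mouse. Each mouse's deviation from the mean of its own group and batch was taken for the genes and for 10 marker scores, a score being the average log2 CPM over a marker list, and 100 correlations over 28 mice were computed with permutation within groups and batches. Of these, 16 passed for both Pearson's r and Spearman's rho after adjustment. *Pcsk2* followed the score of pallial excitatory neurons (*Slc17a7*, *Neurod2*, *Tbr1* and others), at r = 0.921 and rho = 0.893 (permutation, adjusted p = 0.000333 and 5e-04), and r was 0.914 and 0.931 within the batches and 0.879 without the 2 most distant mice. *Scg2* ran the other way, at r = -0.832 and rho = -0.784 (permutation, adjusted p = 0.000333 and 5e-04), with -0.888 and -0.763 within batches and -0.808 without the 2 mice. *Scg2* also followed the oligodendrocyte score (r = 0.786, rho = 0.789, permutation adjusted p = 0.000333 and 5e-04, and 0.755 without 2 mice). The 3 mice with the lowest pallial scores, Acute mice 33 and 4 and Chronic mouse 38, were the 3 with the lowest *Pcsk2* deviations (-0.41, -0.28 and -0.24) and had *Scg2* deviations of 0.33, 0.41 and 0.38. In bulk tissue fewer cells of a type and less RNA per cell cannot be told apart, and gene and score share the library and its scaling.

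The neuron score, which shares *Slc17a7* with the pallial list, was followed by *Pcsk2* (r = 0.864, rho = 0.806, permutation adjusted p = 5e-04 for each, 0.835 without 2 mice), by *Cpe* (r = 0.613, rho = 0.61, permutation adjusted p = 0.01 and 0.0175, 0.56 without 2 mice) and by *Chgb* and *Pcsk1* (r = 0.803 and 0.753, rho = 0.67 and 0.699, permutation adjusted p = 0.0116 and 0.002 for r and 0.0175 and 0.0064 for rho). The relations of *Chgb* and *Pcsk1* were closer to 1 among first-batch mice (0.941 and 0.921) than among second-batch mice (0.42 and 0.484), and without the 2 most distant mice r was 0.633 and 0.643. *Chga* went against the choroid plexus score (r = -0.721, rho = -0.708, permutation adjusted p = 0.00683 and 0.00933, and -0.709 without 2 mice), with -0.41 among first-batch and -0.786 among second-batch mice. *Cpe* also passed with the pallial (r = 0.617), oligodendrocyte (-0.599) and OPC scores (-0.639), the last being that of oligodendrocyte precursor cells. The OPC score also passed for *Scg2* (r = 0.687) and *Pcsk2* (-0.539). The oligodendrocyte score passed for *Chgb* (-0.659) and *Pcsk2* (-0.652), and the pallial score for *Chgb* (0.633). No marker score passed for *Nenf*, *Enho* or *Pcsk1n*. For *Scg5* the astrocyte score passed by rho (-0.568, permutation adjusted p = 0.0237) and not by r (-0.473, permutation adjusted p = 0.0544).

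**Figure D5:**
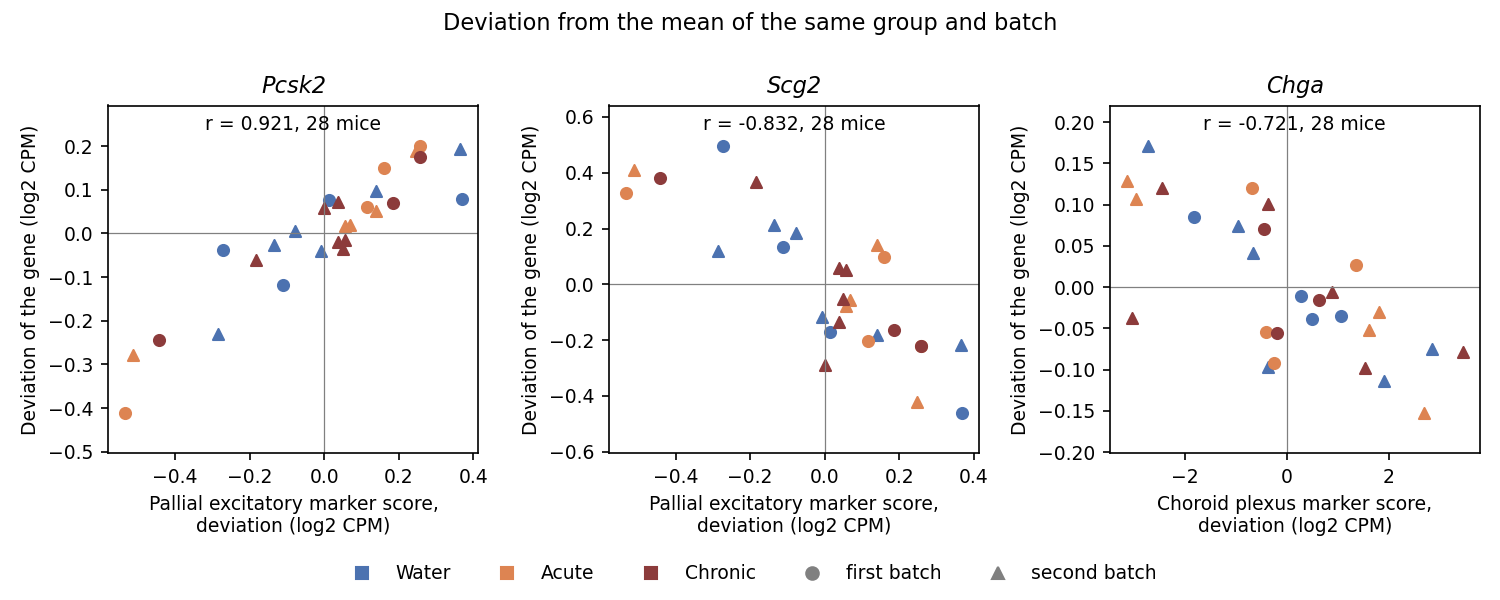
Deviation of *Pcsk2* and *Scg2* from the mean of the same group and batch against that of the pallial excitatory marker score, and of *Chga* against the choroid plexus score, in log2 CPM for 28 mice (colors, groups, and shapes, batches). *Pcsk2* rises with the pallial score (r = 0.921), *Scg2* falls with it (r = -0.832), and *Chga* falls with the choroid plexus score (r = -0.721).

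Between groups, the score of the 7 central amygdala markers was 0.211 higher in Acute and 0.0557 higher in Chronic than in Water mice (SD 0.165 in Water and 0.180 in Acute mice), and their summed level ran from 539 to 787 CPM in Water, between 663 and 881 in Acute and between 532 and 864 in Chronic mice. That list includes *Nts*, which the study had picked from these mice, and the Acute log2 fold changes of its peptide genes were 0.55 (*Nts*), 0.29 (*Crh*) and 0.27 (*Tac2*). The striatum score, over 8 genes, was 0.136 higher in Acute and 0.283 lower in Chronic than in Water mice (SD 0.803, 0.357 and 0.439 in Water, Acute and Chronic), with 414 to 1653, 544 to 1300 and 491 to 1091 CPM in that order, and *Scg2* had r = 0.423 with it (rho = 0.423, permutation adjusted p = 0.272 and 0.186, 0.408 without 2 mice, and 0.647 and 0.165 within the batches). The oligodendrocyte score, over 9 genes, was 0.113 and 0.0629 higher, with SDs of 0.218, 0.257 and 0.192 in Water, Acute and Chronic mice, at 1350 to 3379, 1761 to 3396 and 1955 to 3299 summed CPM in the same order. Its summed medians went the other way, at 2681, 2487 and 2440 CPM. The part of these 3 scores in the *Scg2* difference was not tested, and within groups *Scg2* had r = 0.422 with the central amygdala score (rho = 0.418, permutation adjusted p = 0.141 and 0.177, 0.512 without 2 mice, and 0.624 and 0.315 within the batches). The pallial score was 0.147 lower in Acute and 0.029 lower in Chronic than in Water mice, all 8 of its genes were tested, and their summed level ran from 4032 to 5434 CPM in Water, between 3120 and 5055 in Acute and between 3532 and 5042 in Chronic mice. The SDs of this score were 0.238, 0.305 and 0.211 in Water, Acute and Chronic mice. The summed medians of its genes went the other way, at 4394, 4460 and 4844 CPM in the same order. With the pallial score as a covariate, a fit added after the values were seen, the Acute log2 fold change of *Scg2* was 0.16 (SE 0.069, edgeR adjusted p = 0.456) in place of 0.29. Without the covariate the SE was 0.119. *Pcsk2* was then at 0.06 in Acute and -0.04 in Chronic mice, and at -0.10 in Chronic against Acute (SE 0.032, edgeR p = 0.00301, adjusted p = 0.9747). *Nenf*, *Enho* and *Pcsk1n* had 0.245, 0.196 and 0.173 in Chronic mice under this fit, against 0.243, 0.199 and 0.175 without it.

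The choroid plexus score was 0.23 lower in Acute and 0.372 lower in Chronic than in Water mice, with an SD of at least 1.69 in each group. Its 8 genes were all tested, none was at 0 in every mouse, and their summed level ran from 25.3 to 4083 CPM in Water, between 15.2 and 3620 in Acute and between 12.6 and 4360 in Chronic mice. For the Acute group the summed median went against the score, at 977 CPM beside 811 CPM for the Water group. The median of the Chronic group was lower, at 474 CPM. The part of this score in the *Chga* values was not tested.

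Members also moved with each other within groups. Of 45 pairs, 6 passed for both coefficients after adjustment, and how often pairs of other genes pass was not computed. The likeness of members to *Nenf* and *Chga* is not particular to these genes: by r among 11722 genes, *Scg5* ranked 312 and *Enho* 480 for likeness to *Nenf*, and *Scg2* ranked 143 for likeness to *Chga*. Ranks were not computed for the other pairs that passed. *Pcsk2* and *Cpe*, successive enzymes of peptide maturation that also both followed the pallial and neuron scores, moved together (r = 0.652, rho = 0.698, permutation adjusted p = 0.00112 and 0.00585, 0.574 without 2 mice), as did *Pcsk1* and *Chgb* (r = 0.634, rho = 0.577, permutation adjusted p = 0.0248 and 0.0342, 0.46 without 2 mice). Among the granins, *Chga* and *Scg2* were paired (r = 0.584, rho = 0.543, permutation adjusted p = 0.0231 and 0.0342, 0.524 without 2 mice). *Scg2* ran against *Pcsk2* (r = -0.719, rho = -0.807, permutation adjusted p = 0.00112 and 9e-04, -0.722 without 2 mice) and against *Cpe* (r = -0.649, rho = -0.694, permutation adjusted p = 0.0248 and 0.0126, -0.607 without 2 mice). *Nenf* was paired with *Scg5* (r = 0.565, rho = 0.557, permutation adjusted p = 0.0236 and 0.0342, 0.498 without 2 mice). All 6 had the same sign within each batch. *Nenf* and *Enho* had r = 0.514 (rho = 0.454, permutation adjusted p = 0.125 and 0.157), which was 0.199 and 0.6 within the batches and 0.315 without 2 mice.

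The spread between mice set these genes apart from one another. *Scg2* had a within-group SD of 0.28 in log2 CPM, larger than that of 97.8% of the 500 genes nearest to it in level. *Pcsk2* (0.16) exceeded 90.2% of its neighbours, *Chgb* 87.6%, *Pcsk1* 85.2% and *Nenf* 80.6%. *Cpe* and *Scg5* were steady, above only 35% and 32.8% of their neighbours, at an SD of 0.07 each.

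By the same within-group deviations, the genes most like *Nenf* among 11722 genes that averaged 100 counts or more were *2410015M20Rik* (r = 0.857), *Mrpl14* (0.835), a protein of the mitochondrial ribosome, and *Tmem256* (0.828). Those most like *Enho* were *Rps10* (0.759) and *Rack1* (0.735), both parts of the small ribosomal subunit, and *Mgat1* (0.722), a Golgi enzyme of N-glycan synthesis. Genes for cytosolic ribosomal proteins, a group picked after seeing these names, made up 15 of the 100 genes most like *Nenf* and 13 of those most like *Enho*, beside 1 for *Pcsk1n*, 0 for *Chga* and 82 (0.70%) of all 11722. *Pcsk1n* was most like *Adrm1* (0.817), a ubiquitin receptor of the proteasome, *Ecsit* (0.765) and *Snx3* (0.755), a sorting nexin. *Chga* was most like *Ckmt1* (0.815), the mitochondrial creatine kinase, *Cltb* (0.772), a clathrin light chain, and *Atmin* (0.768). These are the highest of many coefficients over the same 28 mice and carry no test.

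The rest of the pathway was read from lists of 85 further genes, of which 81 were in both tables and 70 had enough counts. None was called in any comparison with edgeR, whereas DESeq2 called 1 of the 70 in Chronic mice (0.234% of all genes), and after ComBat-seq 1 in Acute (0.184%) and 1 in Chronic mice (0.54%). The Acute call was *Nts*, which the study had picked from the same mice in the same comparison, so nothing is read from it. At an unadjusted p of 0.05, 6 of the 70 were counted in Acute mice (5 higher and 1 lower), 6 in Chronic (4 higher and 2 lower) and 5 in Chronic against Acute (2 higher and 3 lower). The counts for Acute mice and for Chronic against Acute include *Nts*. The shares over all genes were 9.52% in Acute (4.45% lower), 10.5% in Chronic (5.65% lower) and 4.44% between them (1.95% higher and 2.5% lower). The median log2 fold change over the 70 genes was 0.04 in Acute mice and 0.03 in Chronic mice.

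Among the other granins, *Vgf*, a precursor of several neuropeptides, had 322 ± 18.4 CPM in Water, 347 ± 24.2 in Acute mice and 350 ± 30.8 in Chronic mice (log2 0.11 and 0.12, edgeR adjusted p = 0.491 and 0.341). *Scg3*, which tethers granins to the vesicle membrane, had 0.05 and 0.01 (edgeR adjusted p = 0.637 and 0.904). Among 14 other processing enzymes tested, *Pam*, which amidates peptides, had 0.04 and 0.01, and *Furin*, the convertase of the constitutive pathway, had -0.06 and 0.06. *Cpd*, the carboxypeptidase of the trans-Golgi network, went from 164 ± 11.7 CPM in Water to 147 ± 13.1 in Acute mice and 149 ± 12.7 in Chronic mice, with 8 of 9 Acute mice below the Water mean (log2 -0.16 and -0.14, edgeR adjusted p = 0.407 and 0.35). *Qpct*, which forms the pyroglutamate end of peptides, had 12.3 ± 1.70, 14.4 ± 0.99 and 12.4 ± 1.35 CPM, with the highest mean in Acute mice (log2 0.23, edgeR adjusted p = 0.396, and -0.21 from Acute to Chronic, edgeR adjusted p = 0.998).

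Of 27 dense-core vesicle genes tested, *Ccdc186*, which acts in vesicle maturation, had the smallest p in Chronic against Water. It went from 44.8 ± 2.83 CPM in Water to 42.8 ± 0.65 in Acute mice and 40.8 ± 1.79 in Chronic mice, and every drinking mouse lay below the Water mean (log2 -0.07 and -0.13, edgeR adjusted p = 0.531 and 0.181). DESeq2 and ComBat-seq followed by DESeq2 called it in Chronic mice. *Resp18* (log2 0.14 and 0.17) and *Ptprn*, a vesicle membrane protein (0.07 and 0.07), had edgeR adjusted p between 0.338 and 0.502, and *Rab3d* had 0.21 from Acute to Chronic (edgeR adjusted p = 0.998).

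Of 34 neuropeptide precursors listed, 22 were tested, 18 of them with a log2 fold change above 0 in Acute mice (50.6% of all genes) and 16 in Chronic mice (51%). *Nts*, *Crh* and *Tac2* are also in the central amygdala marker list, whose score was 0.211 higher in Acute mice. That score holds their own values and is not independent of them. *Nts*, the neurotensin precursor, which the study had also named from these mice, had 22.4 ± 4.73 CPM in Water, 32.8 ± 7.71 in Acute mice and 26.5 ± 4.23 in Chronic mice. From Acute to Chronic its log2 fold change was -0.31, a value that is not independent of the choice of *Nts* for its level in the same Acute mice. *Cartpt* had 6.83 ± 2.06, 7.70 ± 1.66 and 8.55 ± 2.09 CPM (0.33 in Chronic mice, edgeR adjusted p = 0.459).

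The relatives and proposed partners of the secreted factors gave no call. *Pgrmc1*, *Pgrmc2* and *Cyb5d2*, which share the heme-binding fold of *Nenf*, had log2 fold changes between -0.03 and 0.06 against Water. *Gpr19*, proposed as a receptor of adropin, had -0.05 and -0.06. *Cntn6*, a contactin that has been proposed as another partner, had -0.01 and 0.14, and 0.16 from Acute to Chronic (edgeR adjusted p = 0.998).

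All 10 genes are protein coding in the GENCODE M21 annotation of GRCm38. *Nenf* lies on chr1:191306789-191318194 (minus strand) and *Enho* on chr4:41638144-41640324 (minus strand). *Pcsk1n* lies on chrX:7919822-7924410 and *Chga* on chr12:102554969-102565028 (both plus strand). *Enho* overlaps *Dnaic1* and the antisense gene *Gm12406* on the other strand, *Pcsk1n* overlaps *Eras*, and *Pcsk2* overlaps the antisense genes *Pcsk2os1* and *Pcsk2os2*. Whether the quantification used strand is not given in the sources used here, so reads of these overlaps cannot be told apart. The other 7 genes overlap no annotated gene.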

How the data were processed

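The authors quantified paired-end reads with Salmon 0.14.1 on a GRCm38 transcriptome, summarized them by gene, and deposited whole-number counts, a table per batch, not normalized (FastQC and Salmon per the labels). A mouse's group and batch come from its label. No column was left out. Gene identifiers were joined without version, which left 574 genes of the first and 1596 of the second table out. Genes averaging 10 or more counts were kept.

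Differences were tested 2-sided with edgeR 4.0.16 (R 4.3.3, limma 3.58.1) by the quasi-likelihood test, with TMM normalization, batch and group as terms over all 28 mice, and Benjamini-Hochberg adjustment over 16266 genes at a threshold of 0.05. Batch-adjusted CPM had the batch term removed on the log2 scale (prior count 2). Exact permutation tests enumerated all regroupings within batches (32340 against Water, 16170 between Acute and Chronic). Correlations used 100000 permutations within groups and batches. The fits were checked on simulated data for Chronic against Water. Of 100 genes changed by a log2 of 0.25, 70 were called, and of 100 changed by 0.5, 96 were called. There were 13 false calls, and changes smaller than 0.25 were not simulated. Each of 28 mice sets n, and total counts of 20004380 to 22569562 set the counting error.

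Alternatives were RLE normalization, DESeq2 1.42.0, ComBat-seq (sva 3.50.0) before DESeq2, other filters, a replicate block, each batch alone, only the groups compared, GC and length offsets, a pallial score covariate and leaving out each mouse. The genes and lists were chosen with earlier results of these data known. Named beyond the 10 genes were, for each list and comparison, up to 3 genes with the smallest p (1 of them is not reported here), plus *Pam*, *Furin*, *Vgf* and *Scg3*, and the 3 genes most like each of *Nenf*, *Enho*, *Pcsk1n* and *Chga*.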

Additional observations from a re-analysis of the deposited data

Results flagged for a closer look

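In 3 of the 30 combinations of gene and group, the lowest mouse stood apart from the rest of its group by Dixon's criterion, which chance alone does in about 1 group in 20. *Scg5* was at 118 CPM in Water mouse 4 of the second batch. *Pcsk2* was at 307 CPM and *Chgb* at 259 CPM in Chronic mouse 38 of the first batch, which also had a low score of the pallial excitatory markers.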

How the results depend on the processing

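The number of the 10 genes called was 0 in each comparison with edgeR under RLE normalization, no filter, a filter at 100 counts, each batch alone, only the groups compared, the pallial covariate and the GC and length offsets. DESeq2 with batch called 3 of the 10 and 1 further pathway gene (*Ccdc186*) in Chronic mice against Water, of 38 genes called in all. ComBat-seq followed by DESeq2 called 2 of the 10 and 1 pathway gene (*Nts*) in Acute mice, of 30 in all, and 3 of the 10 and 1 pathway gene in Chronic mice, of 88 in all. Which property of these tools raised the counts was not tested. Leaving out 1 mouse at a time gave 0 to 1 of the 10 in Chronic mice, and 0 in each other count. The 1 was *Pcsk1n* without Water mouse 3.

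Replicate numbers did not pair the mice: the 16 same-numbered pairs of mice correlated between -0.346 and 0.338 in their deviations. A replicate block left the calls at 0 of the 10 and 0 of the pathway genes in each comparison.

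In the refitted models, signs turned for *Scg5*, *Pcsk1*, *Pcsk2*, *Cpe*, *Chgb* and, between Acute and Chronic, *Nenf*, and the cause was not tested. In differences of batch means without a fit, signs also turned for *Scg2* in Chronic mice (-0.00212, second batch) and, from Acute to Chronic, for *Pcsk1n* (-0.000519, first batch) and *Pcsk2* (0.00366, second batch). Under ComBat-seq and DESeq2, *Chgb* in Acute mice had -0.0016 and *Scg5* in Chronic mice -0.00897. In the first batch alone, *Scg5* in Chronic mice had -0.0754 and *Nenf* from Acute to Chronic -0.00274. In the second batch alone, *Chgb* had -0.00772 in Acute and 0.0164 in Chronic mice, *Pcsk1* had 0.0203 in Chronic mice, and from Acute to Chronic *Scg5* had 0.0132, *Pcsk1* 0.0347, *Cpe* 0.00911 and *Chgb* 0.0241. With the pallial covariate, *Pcsk1* and *Pcsk2* in Acute mice had 0.0224 and 0.0626. With GC and length offsets, *Pcsk1*, *Pcsk2* and *Chgb* in Acute mice had 0.0239, 0.00587 and -0.0215, and *Pcsk1* in Chronic mice 0.0193.

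Leaving out single mice, the log2 fold change in Acute mice ran from -0.0486 to 0.0165 for *Pcsk1*, -0.0403 to 0.0323 for *Pcsk2* and -0.0265 to 0.0417 for *Chgb*. In Chronic mice it ran from -0.00499 to 0.0259 for *Scg5*, -0.00224 to 0.0322 for *Cpe* and -0.0464 to 0.0109 for *Chgb*. From Acute to Chronic it ran from -0.0554 to 0.0111 for *Pcsk1*, -0.0853 to 0.000968 for *Pcsk2*, -0.0346 to 0.00343 for *Cpe* and -0.0611 to 0.0103 for *Chgb*. For *Nenf*, *Enho*, *Pcsk1n* and *Chga* against Water and for *Scg2*, no such fit changed the sign. Counting error weighs most on *Nenf* and *Enho*, which had the smallest counts.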
